A study of Mus musculus with 12 samples.

Results

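Wnt beta-catenin feedback targets are genes that the Wnt pathway switches on and whose products then act back on it. Probe sets were taken from the deposited expression table where the platform annotation names exactly 1 of 10 genes: Axin2, Dkk1, Lgr5, Nkd1, Nkd2, Apcdd1, Tnfrsf19, Sp5, Lef1 and Znrf3. These 10, of 18193 genes with a single symbol on the array, had 28 of the 45037 probe sets analysed. Each gene was represented by its brightest probe set by mean log2 signal over all arrays, and the others served as a check. All 10 representative probe sets passed the filter on low signal, so no member was lost to it.

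The arrays came from mouse D3 embryonic stem cells, an established line, grown for 7 days in medium with serum. There were 4 groups of 3 arrays. They were grown with LIF (1000 units per ml), with both LIF and lithium, with neither (LIF-free), or with lithium alone (LIF-free plus lithium). The labels give the lithium concentration as 50 nM. No feeder layer, vector or genetic change is named for any group, and the labels call the arrays biological replicates 1 to 3 of each group. The comparisons ask what lithium does with and without LIF, what LIF withdrawal does with and without lithium, and whether one alters the other.

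In the absence of a Wnt signal, a complex built on Axin and APC lets the kinase GSK3 mark beta-catenin for breakdown. A Wnt signal stops this, and beta-catenin then enters the nucleus and works through DNA-binding factors of the TCF/LEF family. Lithium inhibits GSK3 and is used to imitate a Wnt signal, usually at millimolar concentrations, so the labelled nanomolar concentration lies far below that range. LIF keeps mouse embryonic stem cells self-renewing through STAT3. Beta-catenin itself, GSK3 activity and protein levels were not measured here.

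TCF/LEF factors bind short sites, and CTTTGA, 1 form of their core, was the only form searched. From the RefSeq promoter table (build GRCm38.p6), 11 start sites for 7 of the members were used. Any member window on 1 chromosome was left out, whereas the shares over all windows include that chromosome. The 250 bases before each start were searched for CTTTGA on both strands, that is, for CTTTGA or TCAAAG. The motif was found in 4 of the 11 windows, of 4 genes: Dkk1, Sp5, Tnfrsf19 and Lef1. Of all 32851 windows of this length in the table, 13.8% held at least 1 match and 1.37% at least 2. Dkk1, Sp5 and 1 Lef1 window held 2 matches each. The windows below are those of 3 genes with a match whose signals separated fully between arrays with and without LIF, with matches in capitals, together with that of Axin2, which separated too and held none in this window. They run 5′ to 3′ on the gene's strand and end 1 base before the annotated start. That of Dkk1 lies at chr19:30549497-30549746 (minus strand), of Sp5 at chr2:70474673-70474922 (plus), of Tnfrsf19 at chr14:61037988-61038237 (minus, its downstream start) and of Axin2 at chr11:108920099-108920348 (plus).
Dkk1: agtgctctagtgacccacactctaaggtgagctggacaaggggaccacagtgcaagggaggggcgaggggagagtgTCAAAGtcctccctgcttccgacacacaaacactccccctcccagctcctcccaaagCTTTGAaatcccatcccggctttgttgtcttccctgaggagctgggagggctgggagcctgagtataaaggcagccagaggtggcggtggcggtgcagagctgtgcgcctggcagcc
Sp5: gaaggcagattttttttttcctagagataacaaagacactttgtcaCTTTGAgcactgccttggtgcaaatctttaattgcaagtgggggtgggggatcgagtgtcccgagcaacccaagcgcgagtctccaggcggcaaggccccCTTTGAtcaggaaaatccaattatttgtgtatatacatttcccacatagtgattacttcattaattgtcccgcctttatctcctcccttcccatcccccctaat
Tnfrsf19: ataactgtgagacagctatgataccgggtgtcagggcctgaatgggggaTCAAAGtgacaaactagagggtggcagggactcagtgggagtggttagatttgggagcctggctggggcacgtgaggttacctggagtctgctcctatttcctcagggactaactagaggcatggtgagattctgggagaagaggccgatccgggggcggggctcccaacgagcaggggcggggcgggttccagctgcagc
Axin2: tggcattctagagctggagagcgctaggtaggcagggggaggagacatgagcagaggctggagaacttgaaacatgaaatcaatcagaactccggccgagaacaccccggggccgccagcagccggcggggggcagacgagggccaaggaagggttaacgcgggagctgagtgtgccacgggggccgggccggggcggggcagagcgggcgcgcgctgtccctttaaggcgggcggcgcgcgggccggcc
The matches in Dkk1 begin 174 and 117 bases before the start, those in Sp5 204 and 104, and that in Tnfrsf19 201. A match is a description of these letters, and a window without one says nothing about sites elsewhere. Other forms of the core were not searched and stay in lower case, so the capitals are not a full set of possible sites.

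Values are the deposited MAS5 signals, whose mean without the lowest and highest 2% of values was 100 on every array. Array medians lay between 10.5 and 19.3, and a probe set was tested where the geometric mean of its signals exceeded 7.52, which kept 27022. Between 2 arrays, Pearson r of the log2 signals over probe sets was at least 0.864 and at most 0.97. The 3 prime to 5 prime signal ratio of Gapdh was 0.798 to 0.860 over the 6 arrays with LIF and 0.739 to 0.802 over the 6 without, and its part in the results was not tested.

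Across the 4 groups, feedback targets differed between cultures with and without LIF, and no lithium difference passed the test. In cultures without lithium, LIF withdrawal raised Dkk1, Tnfrsf19 and Axin2 by 5.62, 5.90 and 2.74 times. In lithium-treated cultures it raised the same 3 genes by 5.68, 7.09 and 3.21 times. Lgr5, Apcdd1 and Znrf3 passed there as well, but their calls were lost under quantile normalisation, median centring or no filter. No member passed the test for a lithium effect, with LIF, without it or on average. In Axin2, Dkk1, Tnfrsf19, Sp5 and Znrf3, every one of the 6 LIF-free arrays lay above every one of the 6 arrays with LIF. That separation was seen in 5 of 10 members and in 8.22% of all probe sets tested, while the opposite separation was seen in 0 members and 5.91% of probe sets.

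**Figure D1:**
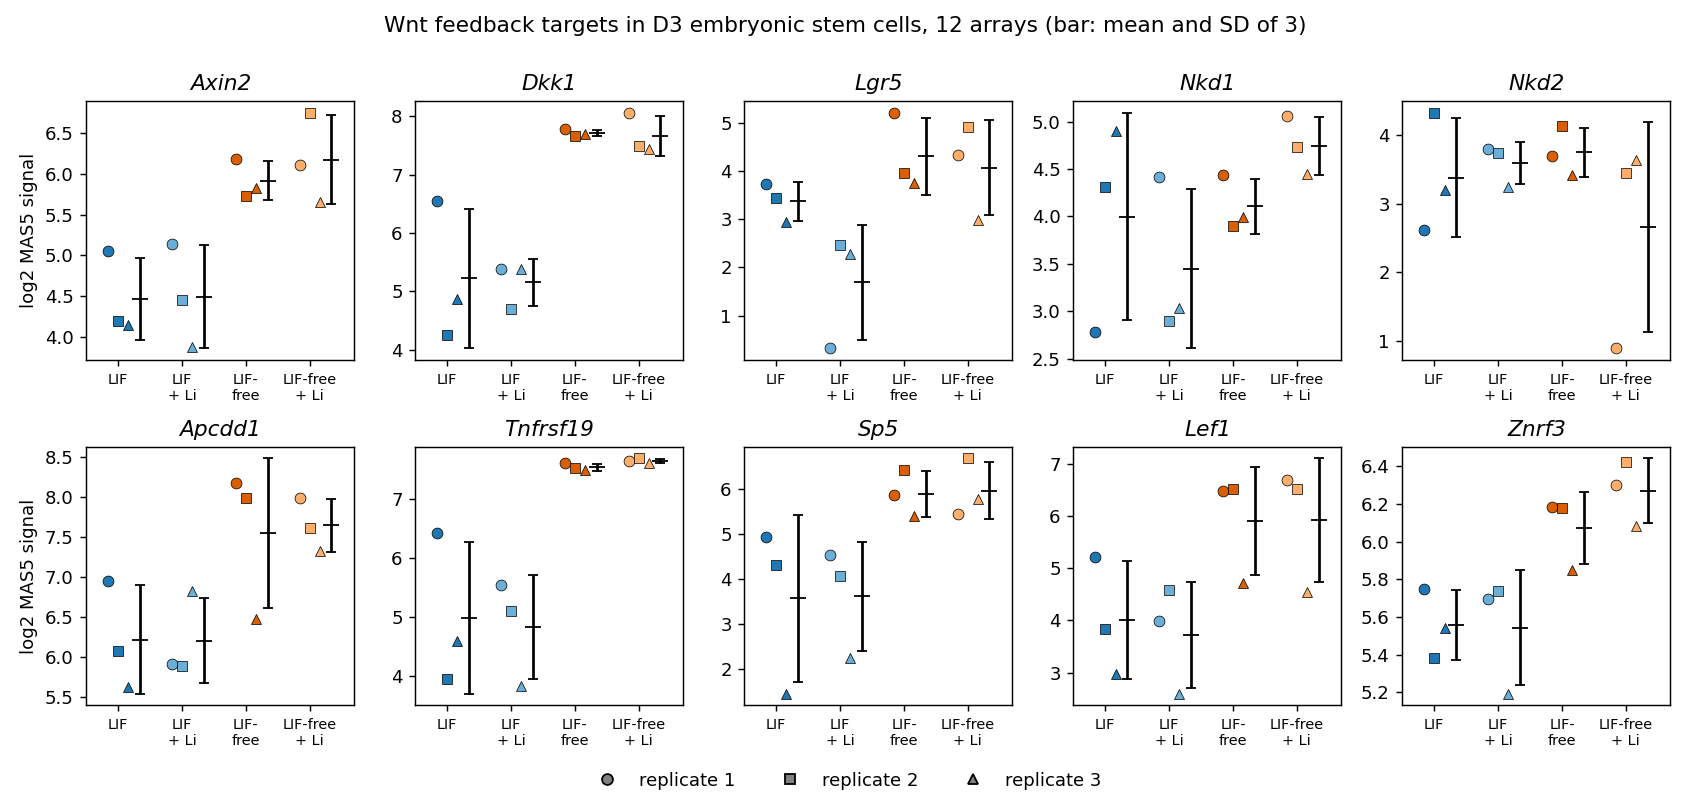
Log2 MAS5 signal of the brightest probe set of each of the 10 genes on the 12 arrays (vertical axes, own scale per gene) in the 4 groups (horizontal axis). Symbols mark replicates 1 to 3, and bars the mean and SD of 3 arrays. In Dkk1 and Tnfrsf19 the 6 LIF-free arrays lie close together above the 6 arrays with LIF. In Nkd1 and Nkd2 the 6 LIF-free arrays overlap with the 6 arrays with LIF.

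Among secreted and membrane-bound inhibitors, Dkk1 codes for an antagonist that blocks the Wnt co-receptors LRP5 and LRP6. Its signals on replicates 1, 2 and 3 were 93.9, 19.0 and 29.1 with LIF, 41.5, 25.9 and 42.0 with LIF plus lithium, 219, 203 and 207 in LIF-free cultures, and 266, 179 and 173 with lithium alone. The lowest LIF-free array stood at 173 and the highest array with LIF at 93.9, so the groups divided by LIF and overlapped by lithium. LIF withdrawal changed Dkk1 by 2.49 on the log2 scale without lithium (95% interval 1.54 to 3.44, limma adjusted p = 0.00482, n = 3 against 3). With lithium the change was 2.50 (1.55 to 3.46, limma adjusted p = 0.00364). Both rises were called with any 1 array left out, with adjusted p of at most 0.0239 and 0.0218. The size without lithium depended on LIF replicate 1, the highest array with LIF: without it the log2 change was 3.16 in place of 2.49.

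Apcdd1 codes for a membrane protein that binds Wnt and LRP5 and lowers Wnt signalling. Its signals were 124, 67.5 and 49.5 with LIF, 60.2, 59.3 and 114 with LIF plus lithium, 289, 255 and 89.1 in LIF-free cultures, and 255, 196 and 161 with lithium alone. LIF-free replicate 3, at 89.1, lay below 1 of the arrays with LIF, so these groups overlapped, whereas the lithium-treated pair of groups did not. The log2 change without lithium was 1.33 (0.38 to 2.28) and did not pass (limma adjusted p = 0.0772). It passed with the replicate number as a block (limma adjusted p = 0.0231, from 0.00279 to 0.242 over 22 alternatives). With lithium Apcdd1 rose by 1.44 on the log2 scale (0.49 to 2.39, limma adjusted p = 0.0493). This call was marginal: it ended without LIF replicate 2 (0.0651), LIF plus lithium replicate 1 (0.107), 2 (0.158) or 3 (0.0552), LIF-free replicate 2 (0.0616), or LIF-free plus lithium replicate 1 (0.169), 2 (0.126) or 3 (0.0614). The brightest set of Apcdd1 is of a kind (_x_at) whose probes can match other transcripts.

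Among inhibitors inside the cell, Axin2 codes for a protein on which the beta-catenin destruction complex assembles and is the most used readout of the pathway. Its signals were 33.2, 18.3 and 17.8 with LIF, 35.4, 22.0 and 14.7 with LIF plus lithium, 73.0, 53.3 and 56.8 in LIF-free cultures, and 69.0, 108 and 50.7 with lithium alone. The lowest LIF-free array, at 50.7, lay above the highest array with LIF, at 35.4. Axin2 rose on LIF withdrawal by 1.45 on the log2 scale (0.64 to 2.27, limma adjusted p = 0.03) without lithium and by 1.68 (0.87 to 2.49, limma adjusted p = 0.0125) with it. The first call was lost when LIF replicate 2 (adjusted p = 0.11) or 3 (0.0963) was left out, and also without LIF-free replicate 1 (0.101), 2 (0.0745) or 3 (0.0687). The second ended without LIF plus lithium replicate 3 (0.0645) or LIF-free plus lithium replicate 2 (0.066).

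Nkd1 and Nkd2 code for Naked cuticle proteins, which bind Dishevelled and dampen the signal. Nkd1 signals ran from 6.88 to 30.0 with LIF, 7.46 to 21.3 with LIF plus lithium, 14.9 to 21.6 in LIF-free cultures and 21.9 to 33.4 with lithium alone. Its log2 change on LIF withdrawal was 0.11 (-1.06 to 1.28) without lithium and 1.30 (0.13 to 2.47, limma adjusted p = 0.141) with it, where the groups did not overlap. Nkd2 signals ran from 6.13 to 20.1, 9.45 to 14.0, 10.7 to 17.5 and 1.85 to 12.4 in the same order of groups. Its log2 changes were 0.37 (-1.13 to 1.87) and -0.94 (-2.44 to 0.56), and neither passed. Without LIF-free plus lithium replicate 1 the second was -0.057. Both genes stood near the low end of the tested range, at the 53.9th and 45.8th percentile of mean signal where testing began above the 40th.

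Znrf3 and Lgr5 act on the receptors. Znrf3 codes for a ubiquitin ligase that removes Frizzled receptors from the cell surface, and Lgr5 for a receptor of R-spondins, which relieve that removal. Znrf3 signals were 53.9, 41.7 and 46.5 with LIF, 51.9, 53.4 and 36.6 with LIF plus lithium, 72.7, 72.5 and 57.7 in LIF-free cultures, and 79.0, 85.8 and 67.9 with lithium alone. The separation by LIF was complete but small, 57.7 against 53.9 at its narrowest. The log2 change was 0.51 (0.05 to 0.98, limma adjusted p = 0.161) without lithium. With lithium Znrf3 rose by 0.73 (0.26 to 1.19, limma adjusted p = 0.0446). That call ended without any 1 of 10 of the 12 arrays (all but LIF replicates 1 and 3), with adjusted p of 0.0502 to 0.19. The mean over both Znrf3 probe sets was 0.0039 in place of 0.73 (adjusted p = 0.995), and the second set is described with the other probe sets.

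Lgr5 signals were 13.3, 10.8 and 7.68 with LIF, 1.25, 5.50 and 4.85 with LIF plus lithium, 36.8, 15.5 and 13.4 in LIF-free cultures, and 20.1, 29.8 and 7.86 with lithium alone. These are low signals, at the 45.9th percentile, and the group with LIF plus lithium was the lowest of the 4. All signals of that group lay below the filter value of 7.52, so Lgr5 passed the filter through the groups where it was higher. The log2 change on LIF withdrawal was 0.93 (-0.54 to 2.40, limma adjusted p = 0.446) without lithium. With lithium Lgr5 rose by 2.38 (0.91 to 3.85, limma adjusted p = 0.0379), a call that was lost with no filter. It also ended without LIF replicate 2 (0.0517), LIF plus lithium replicate 1 (0.0971) or 3 (0.0661), LIF-free replicate 2 (0.0545), or LIF-free plus lithium replicate 1 (0.122) or 2 (0.157). With 16 units added before the log the change was 0.78 (adjusted p = 0.0663).

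Sp5 and Lef1 are transcription factors of the pathway. Sp5, a zinc finger factor, restrains the transcription of other Wnt targets, and Lef1 is itself a DNA partner of beta-catenin. Sp5 signals were 30.6, 19.9 and 2.73 with LIF, 23.0, 16.7 and 4.70 with LIF plus lithium, 57.9, 84.6 and 41.7 in LIF-free cultures, and 43.3, 102 and 54.3 with lithium alone. Its arrays separated fully by LIF, and replicate 3 was low in both groups with LIF. The log2 change was 2.31 (0.61 to 4.02, limma adjusted p = 0.0847) without lithium and 2.35 (0.65 to 4.05, limma adjusted p = 0.0699) with it. Neither passed. With replicate number as a block the change without lithium did (limma adjusted p = 0.00775, from 0.00775 to 0.263 over 22 alternatives). The lithium-treated groups missed the cut of 0.1 used for pairing by replicate number, in replicate 2 alone (correlations 0.451, 0.097 and 0.379). Their blocked values therefore stand only among the alternatives. Single arrays moved Sp5 widely. Without lithium its change was 1.26 without LIF replicate 3 and 3.00 without LIF replicate 1, where it passed (limma adjusted p = 0.025). With lithium it was 1.66 without LIF plus lithium replicate 3, and it passed without LIF replicate 1 (limma adjusted p = 0.0444), LIF replicate 3 (0.0136) or LIF plus lithium replicate 1 (0.0492).

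Lef1 signals were 37.0, 14.3 and 7.84 with LIF, 15.9, 23.9 and 6.05 with LIF plus lithium, 89.2, 91.8 and 26.2 in LIF-free cultures, and 103, 91.3 and 23.4 with lithium alone. Replicate 3 was the lowest array in each of the 4 groups, and it was this array that made the groups with and without LIF overlap. The log2 change was 1.90 (0.32 to 3.48, limma adjusted p = 0.126) without lithium and 2.19 (0.61 to 3.77, limma adjusted p = 0.0684) with it. Within the same replicate number the log2 differences were 1.27, 2.68 and 1.74 without lithium, and the block gave a limma adjusted p of 0.0012 (from 0.0012 to 0.346 over 22 alternatives). With lithium they were 2.69, 1.93 and 1.95, all above 0. Without LIF replicate 1, Lef1 passed in both settings (log2 change 2.50, limma adjusted p = 0.0419, and 2.19, 0.0462). Without LIF-free replicate 3 the change without lithium was 2.49 (0.0773), and without LIF-free plus lithium replicate 3 the change with lithium was 2.87 and passed (0.0276).

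Tnfrsf19, also called Troy, codes for a receptor of the tumour necrosis factor family that is switched on by Wnt. Its signals were 85.5, 15.3 and 24.0 with LIF, 46.3, 34.3 and 14.2 with LIF plus lithium, 194, 185 and 179 in LIF-free cultures, and 199, 206 and 196 with lithium alone. The 6 LIF-free arrays lay within a narrow range, 179 to 206, while those with LIF spread from 14.2 to 85.5. Tnfrsf19 rose by 2.56 on the log2 scale (1.43 to 3.68, limma adjusted p = 0.00991) without lithium and by 2.83 (1.70 to 3.95, limma adjusted p = 0.00466) with it. Both calls held with any 1 array left out, with adjusted p of at most 0.0469 and 0.025. Without LIF replicate 1 the log2 change without lithium was 3.28 in place of 2.56.

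Counted over the members, 3 of 10 rose, 0 fell and 7 did not pass on LIF withdrawal without lithium, where 9.31% of all probe sets were called (5.4% higher and 3.91% lower). With the replicate number as a block 6 rose, where 5260 of 27022 probe sets were called: the added genes were Apcdd1, Sp5 and Lef1. Without LIF replicate 1, 6 members were called, where 3950 probe sets were called in place of 2515. With lithium 6 rose, 0 fell and 4 did not pass, where 12.5% of all probe sets were called (7.53% higher and 4.93% lower). Of these 6, Lgr5 passed the filter only through the groups where it was higher, so its call is not independent of the filter. Under quantile normalisation, under median centring and with no filter, 3 rose with lithium, in each case Axin2, Dkk1 and Tnfrsf19. Median centring called 1490 probe sets in place of 3368, and the share for quantile normalisation and for no filter is not given here. The count of members was also 3 without LIF replicate 2, LIF-free replicate 2 or LIF-free plus lithium replicate 1, and 2 without LIF plus lithium replicate 3 or LIF-free plus lithium replicate 2. Probe sets called with lithium ran from 1360, without LIF plus lithium replicate 3, to 4311 over the single arrays left out. Over all probe sets, 58.0% of calls were higher without lithium and 60.4% with it, and under median centring 83.1% and 34.8%. The 3 arrays of one group lay above the 3 of the other in 6 members without lithium (13.8% of all probe sets) and in 8 with it (19.9%). No member lay below without overlap in either setting (13.7% and 13.5% of all probe sets). The median log2 change of the 10 members was 1.39 without lithium, where that of all tested probe sets was -0.07, and 1.94 with it, where that of all was 0.11. All 10 changes were above 0 without lithium and 9 of 10 with it, Nkd2 being the exception, while 44.5% and 58.3% of all tested probe sets were above 0. An exact permutation test of 3 arrays against 3 has a smallest two-sided p of 0.1, so each call rests on the spread pooled over the 4 groups and over probe sets. The 2 withdrawal comparisons share no array.

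**Figure D2:**
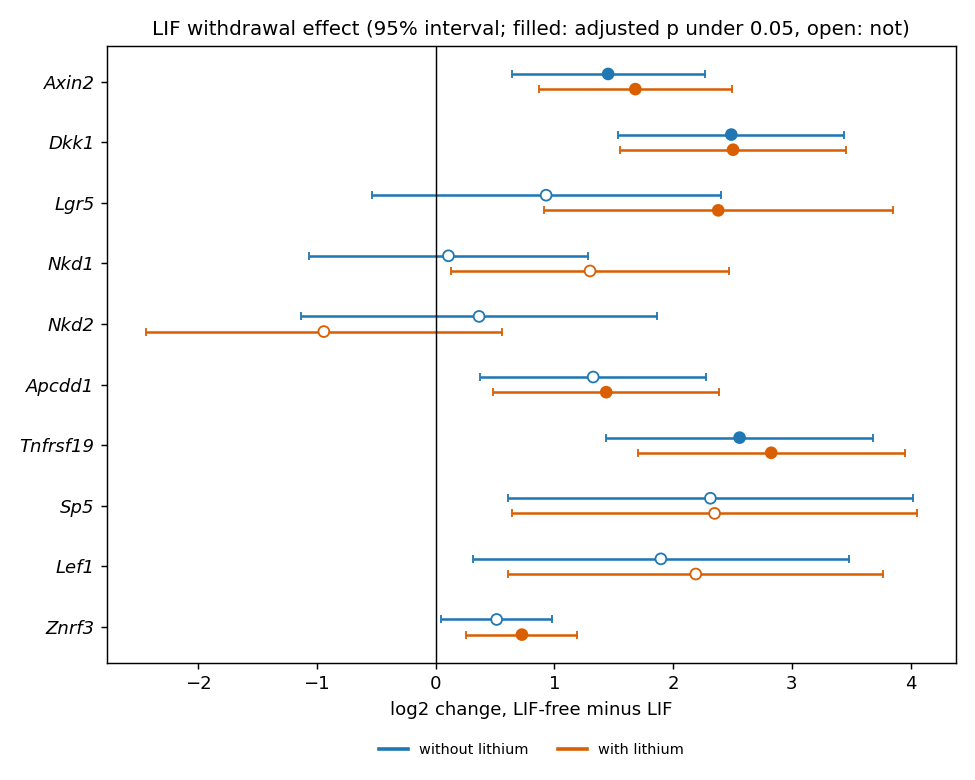
Log2 change on LIF withdrawal (horizontal axis, LIF-free minus LIF) of the 10 genes, without and with lithium, with 95% intervals from limma on 12 arrays. Filled circles mark an adjusted p under 0.05: Axin2, Dkk1 and Tnfrsf19 in both settings, and Lgr5, Apcdd1 and Znrf3 with lithium.

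No feedback target rose or fell on adding lithium by the test, and the intervals set how large a change could have been missed. These intervals come from the fit without the replicate block, although the numbers were taken to pair the arrays compared. With the block, 0 of 10 members were called as well. With LIF, the log2 changes on adding lithium ran from -1.68 in Lgr5 to 0.22 in Nkd2, with a median of -0.04 beside -0.08 for all tested probe sets. Without LIF they ran from -1.09 in Nkd2 to 0.64 in Nkd1, with a median of 0.09 beside 0.03. The Nkd2 value rested on LIF-free plus lithium replicate 1 (signal 1.85), without which it was -0.21. limma called 0 of 10 members and 0% of 27022 probe sets in each of these comparisons. At an unadjusted p under 0.05 the counts were 749 probe sets and 1 member with LIF, and 347 and 0 without LIF.

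The average of both lithium effects, which compares 6 treated with 6 untreated arrays, gave the narrowest intervals. For Axin2 the average log2 effect was 0.14 (-0.43 to 0.72), which corresponds to a ratio between 0.741 and 1.64. For Dkk1 it was -0.06 (-0.73 to 0.61), a ratio between 0.602 and 1.53, and for Tnfrsf19 -0.03 (-0.82 to 0.77), a ratio between 0.566 and 1.70. The most precise member was Znrf3, at 0.09 (-0.24 to 0.42), a ratio between 0.848 and 1.34. Sp5, at 0.06 (-1.15 to 1.26), Lgr5, at -0.95 (-1.99 to 0.08), Lef1, at -0.14 (-1.25 to 0.98), and Nkd2, at -0.44 (-1.50 to 0.62), had intervals wide enough to hold a change of 2-fold. Apcdd1 stood at 0.04 (-0.63 to 0.71) and Nkd1 at 0.04 (-0.78 to 0.87). Within a single setting the intervals were wider, and only that of Znrf3 left out a 2-fold change both with and without LIF. The lithium effect on Axin2 without LIF was 0.26 (-0.56 to 1.07), and that on Dkk1 with LIF was -0.07 (-1.02 to 0.88). In Axin2, Dkk1 and Tnfrsf19 the upper end of the average lithium interval lay below the estimated rise on LIF withdrawal in either setting. In Axin2 that end, 0.72, lay above the lower end of the rise without lithium, 0.64, so those intervals overlapped. The sizes of the lithium and withdrawal effects were not compared by a test. For the average lithium effect limma called 0 of 10 members and 0% of probe sets, and 340 probe sets and 0 members had an unadjusted p under 0.05.

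Lgr5 was the member with the largest lithium estimate. With LIF its signals were 13.3, 10.8 and 7.68 without lithium and 1.25, 5.50 and 4.85 with it, so the groups did not overlap, as in 5.08% of all probe sets that were lower without overlap. The log2 change was -1.68 (-3.15 to -0.21, unadjusted p = 0.0282, limma adjusted p = 0.999), and with 1 array left out it ran from -2.07 to -1.0. Without LIF it was -0.23 (-1.70 to 1.24). The second Lgr5 probe set, below the filter, changed by 0.09 (-1.46 to 1.65) with LIF. In LIF-free cultures, lithium arrays lay above those without it in Nkd1 and Tnfrsf19, as in 3.59% of all probe sets, and no member lay below without overlap (2.42%). In Tnfrsf19 this was 196 to 206 against 179 to 194, a log2 difference of 0.11 (-1.02 to 1.23).

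**Figure D3:**
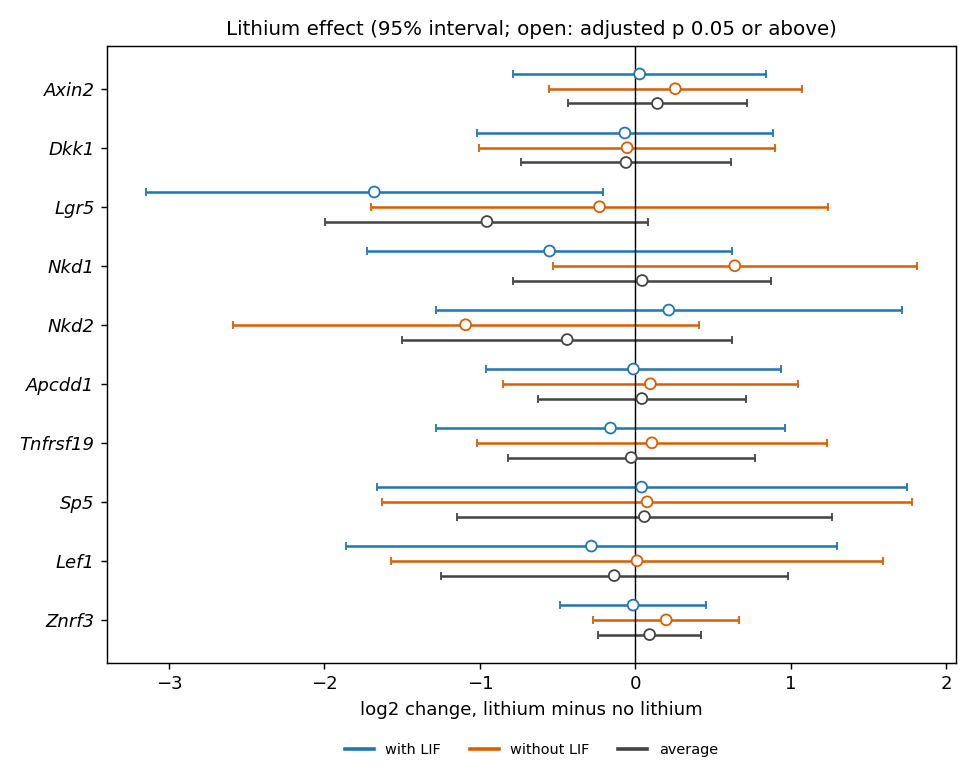
Log2 change on adding lithium (horizontal axis, lithium minus no lithium) of the 10 genes with LIF, without LIF and on average, with 95% intervals from limma on 12 arrays. Open circles mark an adjusted p of 0.05 or above and every circle is open. Every interval includes 0 except that of Lgr5 with LIF, from -3.15 to -0.21.

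Whether lithium altered the effect of LIF was tested as an interaction, the lithium effect without LIF minus that with LIF. No member and 0% of probe sets passed in limma, with 666 probe sets and 0 members at an unadjusted p under 0.05. The estimates ran from -1.31 in Nkd2 (-3.43 to 0.81) to 1.45 in Lgr5 (-0.63 to 3.53). That of Nkd2 was -0.42 without LIF-free plus lithium replicate 1. That of Axin2 was 0.23 (-0.92 to 1.38) and that of Dkk1 0.01 (-1.33 to 1.36). These intervals are wide, and an interaction of 2-fold in either direction lies within that of Dkk1. Lgr5, Apcdd1 and Znrf3 passed the withdrawal test with lithium and not without it, but the interaction does not show that the effects differed.

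The members also varied with the replicate number. The log2 signals of the 10 genes, each centred on its mean over the 12 arrays, averaged -0.11, -0.71 and -1.09 on replicates 1, 2 and 3 with LIF. They averaged -0.64, -0.75 and -1.26 with LIF plus lithium, 1.05, 0.89 and 0.34 in LIF-free cultures, and 0.74, 1.11 and 0.44 with lithium alone. Replicate 3 was the lowest array in each group, and the lowest LIF-free array, at 0.34, lay above the highest array with LIF, at -0.11. LIF replicate 1 was the highest array with LIF in Dkk1, Tnfrsf19, Sp5, Lef1, Apcdd1, Lgr5 and Znrf3. Over the 12 arrays the 45 pairs of members had a median Pearson r of 0.70 (from -0.37 to 0.95), with 37 pairs above 0. After subtraction of group means the median was 0.20. These correlations share the same 12 arrays and their scaling, and are given as a description.

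**Figure D4:**
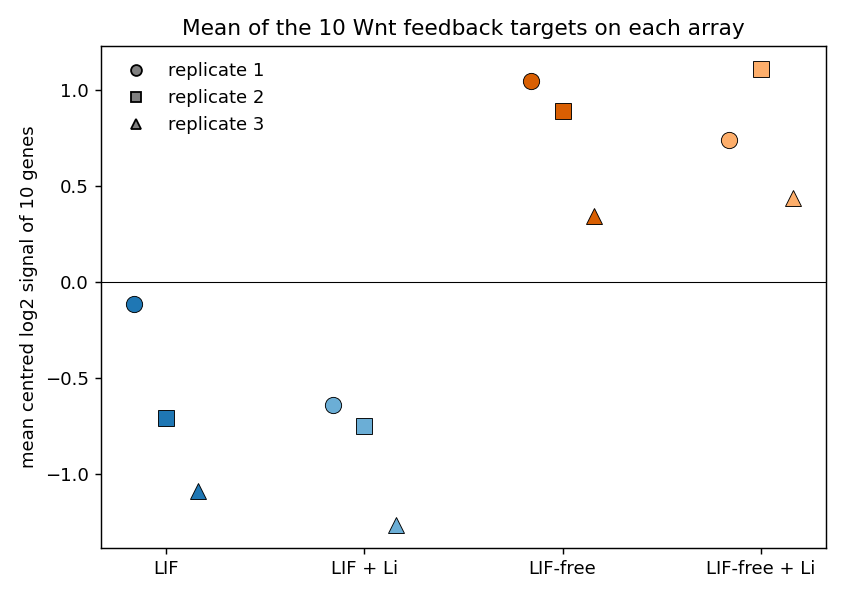
Mean of the centred log2 signals of the 10 genes (vertical axis) on each of the 12 arrays, by group (horizontal axis), with symbols for replicates 1 to 3. The 6 LIF-free arrays lie between 0.34 and 1.11 and the 6 arrays with LIF between -1.26 and -0.11, and replicate 3 is the lowest of each group.

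Second probe sets of the same gene gave a check where they were bright enough. In Dkk1 the second set had r = 0.956 with the first over the 12 arrays, and it rose on withdrawal by 2.39 (limma adjusted p = 0.034) without lithium and by 2.15 (limma adjusted p = 0.0444) with it. In Tnfrsf19 the other sets had r = 0.966 and 0.881, and rose by 1.72 and 1.31 (limma adjusted p = 0.0153 and 0.0419) without lithium and by 1.86 and 1.87 with it (limma adjusted p = 0.00842 and 0.00645). In Apcdd1 the 4 further sets above the filter changed by 0.61 to 1.41 without lithium, none past the threshold. With lithium 2 of them rose, 1 of which is not an _x_at set (log2 change 1.16, limma adjusted p = 0.0155).

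The sets disagreed in other members. The second Znrf3 set, with r = -0.258 to the first, had signals of 18.1, 20.9 and 26.7 with LIF and 16.3, 9.76 and 2.91 in LIF-free cultures (log2 change -1.48, -3.23 to 0.26). A second Nkd2 set, with r = -0.238 to the first, changed by -1.86 (-3.39 to -0.32, limma adjusted p = 0.124) without lithium and by 0.59 with it. The further Nkd1 sets changed by 0.17 to 1.03 without lithium and by 0.58 to 1.29 with it, none past the threshold. The second sets of Axin2, Lef1 and Lgr5 lay below the filter. That of Axin2 changed by 0.89 (-0.91 to 2.70) without lithium and by 1.84 (0.04 to 3.65, limma adjusted p = 0.249) with it. That of Lef1 changed by 0.51 (-0.74 to 1.76) and 0.022 (-1.23 to 1.27), and that of Lgr5 by 0.57 (-0.99 to 2.12) and 0.28 (-1.27 to 1.84). The values given for Axin2, Lef1, Lgr5, Nkd1, Nkd2 and Znrf3 therefore hold for the brightest set alone. For lithium and the interaction no further set of any member passed. Those with an unadjusted p under 0.05 were a set of Nkd1 and a set of Nkd2. The Nkd1 set changed on adding lithium by -1.54 with LIF (-2.88 to -0.20, lower without overlap, limma adjusted p = 0.999) and by -1.02 on average (-1.97 to -0.07). The Nkd2 set had an interaction of 2.45 (0.27 to 4.62, limma adjusted p = 0.999), opposite in sign to that of the brightest set.

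Beyond the 10 feedback genes, a list of 55 other reported beta-catenin targets had 42 tested members. Of these, Rnf43, Sp8, Mixl1, Evx1, Fgf8 and Sox9 had geometric mean signals below the filter value of 7.52 in both groups with LIF. They were tested through the LIF-free groups, so counts of rises are not independent of the filter. Rspo3, Ccn4, Msgn1 and Edn1 lay below that value with LIF plus lithium. On LIF withdrawal without lithium, 10 rose, 1 fell and 31 did not pass, where 5.4% of all probe sets were called higher and 3.91% lower. With the replicate block 20 rose and 3 fell, where 5260 of 27022 probe sets were called in either direction. The median log2 change was 0.89 beside -0.07 for all tested probe sets. With lithium 16 rose, 1 fell and 25 did not pass (median 1.12 beside 0.11), where 7.53% of all probe sets were called higher and 4.93% lower. Those with the smallest p were Id2, a helix-loop-helix inhibitor of differentiation (log2 change 1.51 without and 1.71 with lithium), and Msx2, a homeobox factor (2.25 and 2.62). Met, the hepatocyte growth factor receptor, rose by 1.56 without lithium, and Rspo3, a secreted R-spondin that strengthens Wnt signals, by 4.44 with it. The size in Rspo3 rests on low signals with LIF plus lithium, 1.19 to 17.1 (median 3.23), near the floor of 1. The gene that fell in both was Abcb1a, a drug efflux pump (-1.32 and -1.51). limma adjusted p for these ran from 0.00187 to 0.0123. Lithium changed none of the 42 past the threshold in either setting. Several of these genes respond to other pathways too.

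A list of 37 core pathway genes had 34 tested members. On withdrawal without lithium 3 rose and 2 fell, where 9.31% of all probe sets were called. With lithium 4 rose and 1 fell, where 12.5% were called. The median log2 changes were -0.02 and 0.19. Frzb, a secreted Frizzled-related protein that binds Wnt, rose by 3.38 and 2.75, and Wls, which carries Wnt proteins to the cell surface, by 2.70 and 3.0. Without lithium Tcf7l1, the TCF factor that represses Wnt targets in embryonic stem cells, rose by 0.72, and Cby1, a beta-catenin antagonist, fell by 0.90 on the log2 scale. With lithium Bcl9, a coactivator of beta-catenin, rose by 1.15 and Sfrp1, a secreted Wnt inhibitor, fell by 0.97. limma adjusted p for these ran from 0.00227 to 0.0352. No core gene passed for lithium.

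Cell type markers moved with LIF as well. All 7 pluripotent stem cell markers (Pou5f1, Sox2, Nanog, Zfp42, Esrrb, Klf4 and Tdgf1) passed the filter in these cells. Their summed signal was 12434 to 18571 with LIF, 14404 to 16666 with LIF plus lithium, 5195 to 6905 in LIF-free cultures and 3732 to 7633 with lithium alone. Pou5f1, the Oct4 gene, fell by 1.44 on the log2 scale without lithium and by 1.52 with it (limma adjusted p = 0.0101 and 0.0059). Of all probe sets, 5.4% were called higher without lithium and 7.53% with it. In the primitive streak and early mesoderm list, 3 of 7 tested members rose in either setting. In this list Mixl1, Evx1, Fgf8 and Lhx1 had geometric mean signals below the filter value of 7.52 in both groups with LIF. They were tested through the LIF-free groups, where they were higher, so the count of rises is not independent of the filter. The summed signal of that list was 69.3 to 174 and 79.3 to 123 in the groups with LIF against 223 to 638 and 222 to 583 in those without. In the trophoblast list 2 of 5 rose without lithium and 4 of 5 with it, with summed signals of 234 to 355 and 237 to 341 against 692 to 979 and 704 to 920. Krt7 made the largest part of these sums. Its mean signals were 199 with LIF, 178 with LIF plus lithium, 494 in LIF-free cultures and 489 with lithium alone.

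Neural markers had 0 of 6 called in either setting, where 9.31% of all probe sets were called without lithium and 12.5% with it. Their summed signals were 151 to 184 with LIF, 115 to 199 with LIF plus lithium, 142 to 195 in LIF-free cultures and 173 to 189.9 with lithium alone. Of 7 fibroblast and feeder markers, none was called without lithium and 1, Col3a1, rose with it, with sums of 157 to 319.6, 137 to 231, 175 to 401 and 204 to 447 in the same order of groups. The geometric mean signal of Col3a1 with LIF plus lithium lay below the filter value of 7.52, so it was tested through the other groups. Col1a1 and Postn lay below that value in both groups with LIF. Of 7 primitive endoderm markers, none was called without lithium and 1, Lama1, fell with it, with sums of 984 to 1460, 902 to 1496, 1285 to 1594 and 1235 to 1361. With the replicate block, 5260 of 27022 probe sets were called on withdrawal without lithium. This fit called 5 streak markers and 5 trophoblast markers higher, 2 fibroblast markers higher and 1 lower, and 1 endoderm marker in each direction. Evx1, Fgf8, Mixl1, Tbx6 and Cdx2 stand both among the other targets and in these marker lists, and Eomes in both the streak and the trophoblast list. The part of streak and trophoblast cells in the rise of the feedback targets was not tested, and in these bulk samples more cells of a type and more RNA per cell cannot be told apart.

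The genes whose log2 signals over the 12 arrays most resembled the members' mean, among 12198 genes ranked by Pearson r, were Cyp26a1 (r = 0.991), Ier5 (0.988), Limch1 (0.985), Ssbp3 (0.985) and Gpc3 (0.984). Those most like Axin2 alone were Sox11 (r = 0.981), Jade2 (0.975) and Limch1 (0.971). All 7 were higher on every LIF-free array than on any array with LIF, as were 8.22% of all probe sets tested. They were picked for likeness to profiles that separate in this way, so their separation is no further result. Cyp26a1, a retinoic acid hydroxylase, had signals of 8.88 to 37.1 with LIF, 5.80 to 18.9 with LIF plus lithium, 118 to 256 in LIF-free cultures and 101 to 252 with lithium alone.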

How the data were processed

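The 12 arrays hold labelled RNA of D3 cells, 3 per group. Each deposited value is a probe set's signal intensity, from MAS5 per the submitters' processing notes, whose version is not given in the sources used here. The series' design text speaks of 3 experiments per replicate, so whether an array pools cultures is not stated. Of 45101 probe sets, 64 were controls and not analysed. Signals were raised to at least 1 before log2 was taken. Probe sets above the 40th percentile of mean log2 signal were kept (27022) and fitted with limma 3.58.1 in R 4.3.3, as 1 mean per group, with 8 residual degrees of freedom and an intensity trend. Tests were two-sided, with Benjamini-Hochberg adjustment over all kept probe sets, a threshold of 0.05 and 95% intervals. Their number, 3 arrays a group, limits the precision. The platform annotation named 34945 probe sets with 1 gene, 932 with several and 9160 with none.

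Members, gene lists and tests were chosen with earlier results of these data known. All 10 members are named, with up to 4 genes per further list by smallest p and the genes most like the members' mean or Axin2. Deviations of same-numbered arrays from their group means correlated at over 0.1 in all 3 pairs of LIF and LIF-free arrays (0.438, 0.137 and 0.339). The same held for LIF and LIF plus lithium, and for both LIF-free groups, so the numbers were taken to pair these. The main calls and all intervals nevertheless come from the fit without this block, and blocked values are given beside them or among the alternatives. The LIF plus lithium and LIF-free plus lithium arrays missed this cut in replicate 2 alone (0.451, 0.097 and 0.379). Alternatives were quantile normalisation, median centring, a pseudocount of 16, no filter or one at the 60th percentile, gene means, no trend, array weights, the compared groups only, the replicate block and each array left out. The fit was tested on simulated data. Figures were drawn with matplotlib 3.10.9.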

Additional observations from a re-analysis of the deposited data

How the results depend on the processing

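Dkk1 and Tnfrsf19 were called higher on LIF withdrawal, with and without lithium, under all 10 alternatives and with any 1 of the 12 arrays left out. No member was called for lithium or the interaction under any of these. Without lithium the members called were 6 under median centring, 6 with the replicate number as a block and 7 with array weights, in place of 3. With lithium they were 3 under quantile normalisation, median centring and no filter, in place of 6. Probe sets called without lithium were 1560 under median centring, 5260 with the block, 1674 with no intensity trend, 7870 with array weights and 1168 with the compared groups only, in place of 2515. With lithium they were 1490, 5938 and 6887 under median centring, the block and array weights, and 2232 of the gene means, in place of 3368. With the block, withdrawal with lithium called 8 members, adding Sp5 (adjusted p = 0.00607) and Lef1 (0.000369). These groups fell just short of the cut of 0.1 used for pairing (correlation 0.097 for replicate 2). With 1 array left out, members called ranged from 2 to 6 and from 2 to 8, probe sets from 1039 to 3950 and from 1360 to 4311, and probe sets called for lithium with LIF from 0 to 2. The median log2 change of all probe sets moved under median centring by 0.37 and -0.17 for lithium with and without LIF, by 0.19 and -0.34 for withdrawal without and with lithium, and by -0.54 for the interaction. Quantile normalisation moved it by -0.13 for withdrawal with lithium.

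Estimates that changed sign were not called before or after, with the lowest adjusted p among them at 0.508, and the cause was not tested. Under quantile normalisation the log2 changes became, for lithium with LIF Dkk1 0.065, Apcdd1 0.045, Tnfrsf19 0.048, Lef1 0.12, Znrf3 0.12, for lithium without LIF Sp5 -0.00016, for average lithium Tnfrsf19 0.068, Lef1 0.063, for interaction Axin2 -0.12, Dkk1 -0.13, Sp5 -0.56, Lef1 -0.12. Under median centring the log2 changes became, for lithium with LIF Dkk1 0.30, Apcdd1 0.36, Tnfrsf19 0.21, Lef1 0.086, Znrf3 0.35, for lithium without LIF Apcdd1 -0.070, Tnfrsf19 -0.061, Sp5 -0.091, Lef1 -0.16, for average lithium Dkk1 0.041, Tnfrsf19 0.074, for interaction Axin2 -0.31, Dkk1 -0.52, Apcdd1 -0.43, Tnfrsf19 -0.27, Sp5 -0.50, Lef1 -0.24, Znrf3 -0.32. With array weights the log2 changes became, for lithium with LIF Dkk1 0.43, Nkd2 -0.43, Tnfrsf19 0.69, Sp5 -0.41, Lef1 0.18, Znrf3 0.20, for lithium without LIF Lgr5 0.19, Apcdd1 -0.055, for average lithium Dkk1 0.17, Nkd1 -0.15, Apcdd1 -0.057, Tnfrsf19 0.41, Sp5 -0.14, Lef1 0.097, for withdrawal without lithium Nkd1 -0.17, Nkd2 -0.20, for interaction Dkk1 -0.52, Tnfrsf19 -0.57, Lef1 -0.16. As the mean over the probe sets of a gene the log2 changes became, for lithium with LIF Dkk1 0.20, Nkd2 -0.27, for lithium without LIF Dkk1 0.082, Nkd1 -0.088, Nkd2 0.015, Tnfrsf19 -0.053, for average lithium Dkk1 0.14, Nkd1 -0.45, Apcdd1 -0.062, for withdrawal without lithium Nkd2 -0.42, Znrf3 -0.49, for interaction Dkk1 -0.12, Nkd2 0.29. With a pseudocount of 16 the log2 changes became, for lithium with LIF Sp5 -0.082, for average lithium Sp5 -0.0083, for withdrawal without lithium Nkd1 -0.0076. With 1 array left out, those that changed sign ranged as follows. For lithium with LIF, Axin2 ran from -0.30 to 0.33, Dkk1 ran from -0.55 to 0.60, Nkd2 ran from -0.17 to 0.69, Apcdd1 ran from -0.32 to 0.36, Tnfrsf19 ran from -0.68 to 0.56, Sp5 ran from -1.02 to 0.73, Lef1 ran from -0.80 to 0.32, Znrf3 ran from -0.11 to 0.16. For lithium without LIF, Axin2 ran from -0.032 to 0.51, Dkk1 ran from -0.25 to 0.058, Lgr5 ran from -0.65 to 0.32, Apcdd1 ran from -0.44 to 0.41, Sp5 ran from -0.28 to 0.34, Lef1 ran from -0.58 to 0.69. For average lithium, Axin2 ran from -0.020 to 0.30, Dkk1 ran from -0.30 to 0.27, Nkd1 ran from -0.26 to 0.27, Nkd2 ran from -0.68 to 0.0033, Apcdd1 ran from -0.23 to 0.23, Tnfrsf19 ran from -0.29 to 0.33, Sp5 ran from -0.47 to 0.40, Lef1 ran from -0.43 to 0.21. For withdrawal without lithium, Nkd1 ran from -0.50 to 0.56, Nkd2 ran from -0.017 to 0.84. For interaction, Axin2 ran from -0.078 to 0.55, Dkk1 ran from -0.65 to 0.50, Apcdd1 ran from -0.43 to 0.42, Tnfrsf19 ran from -0.45 to 0.79, Sp5 ran from -0.65 to 1.09, Lef1 ran from -0.31 to 0.98.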
